A study of Meleagris gallopavo with 8 samples.

Results

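The unfolded protein response was described in turkey breast muscle through 10 of its genes. They are the sensors ATF6, ERN1 and EIF2AK3, the transcription factors ATF4 and XBP1, and the chaperones and folding enzymes HSPA5, CALR, CANX, PDIA4 and HYOU1. Members were found by gene name in the authors' transcript annotation, among assembled transcripts that match a reference transcript exactly, are contained in one, or share at least 1 splice junction with one. All 10 genes were found, each in 1 locus, among 7360 gene names and 23108 loci in all. The 10 loci held 28 assembled transcripts that met the rule.

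The unfolded protein response is the reaction of a cell to proteins that fail to fold in the endoplasmic reticulum, the compartment where secreted and membrane proteins are made. ATF6, ERN1 and EIF2AK3 sit in its membrane and are held inactive there by the chaperone HSPA5; when released, they lead to active transcription factors that switch on chaperone genes, and EIF2AK3 also slows protein synthesis. In skeletal muscle this compartment is continuous with the sarcoplasmic reticulum, which stores the calcium for contraction.

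Samples were pectoralis major muscle from random-bred RBC2 turkeys killed at 22 weeks of age. Meat was classed by marinade uptake 24 h after slaughter. The series holds 4 samples of normal meat, which took up much marinade, and 4 of PSE (pale, soft and exudative) meat, which took up little. All 8 came from 1 unselected line, with no treatment given in the labels.

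The deposited count table has 8 columns of reads per locus, and its columns carry no names. Neither the labels nor the files fix their order, so no column was tied to a sample and normal meat was not compared with PSE meat. The columns are called A to H, letters that stand for no sample, bird or class of meat. Column totals ran from 7389830 (H) to 12066951 (B) counts. The highest locus took 7.97% to 10.6% of a column, and the 10 highest loci together took 25.3% to 29.7%. With no groups, no test between groups was possible and no p-value is given. Each value below is one column's, and its 95% interval covers counting error only, since reads without molecular identifiers are not independent molecules. In whole muscle, fewer cells of a type and less RNA per cell cannot be told apart.

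The tissue label was checked against markers. Of 16 fast fibre symbols 4 had a locus, and their summed level was 13170 to 15720 CPM (counts scaled to the total of their column), led by the troponin gene TNNI2 at 10960 to 13380. The fast fibre marker PVALB was near 0, at 0.246 to 3.77 CPM. Of 7 slow fibre symbols 4 had a locus, at a summed 1107 to 4136 CPM, nearly all of it from TNNC1 at 994 to 4072. MYL2 was at 44.6 to 122, MB at 8.2 to 31.8 and TNNI1 at 0.85 to 7.44 CPM. None of 4 satellite cell symbols had a locus.

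Per length of exon, the 10 genes covered a wide range of levels. Levels are given as RPKM, which is CPM per kilobase of the locus's exons, and each is set among the 14461 loci with a median of at least 10 counts, whose median was 6.72. ATF4, the factor whose translation rises when general protein synthesis slows, was highest, with a median of 431 over the columns (285 to 560), at percentile 99.3 of those loci. CALR, a calcium-binding chaperone for glycoproteins, followed at 155 (127 to 189). HSPA5, the main HSP70 chaperone of the compartment, stood at 63.4 (58.9 to 88.9). The 3 lowest levels on this scale were those of the 3 sensors. For ERN1 this rests on the length used, since the locus is longer than the gene's assembled transcripts. The counts of the whole locus over its longest transcript alone would give 15.6 RPKM. That value is an upper bound and cannot be ranked against the other genes.

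XBP1, the factor made active when ERN1 cuts its mRNA, had a median of 22.2 RPKM and ran from 14.6 to 49.3, the largest ratio of highest to lowest among the 10. PDIA4, a disulfide isomerase, stood at 19.2 RPKM (15.6 to 27.8). Their ranges overlap, so neither ranks above the other in all columns. HYOU1, a chaperone related to HSP70 that exchanges the nucleotide of HSPA5, was at 10.2 RPKM (8.99 to 12.9), in a locus that also holds PHLDB1. CANX, the membrane-bound relative of CALR, was at 9.54 RPKM (8.59 to 12.5), and these ranges overlap too.

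Among the sensors, ATF6, which is itself a transcription factor once cut free of the membrane, stood at 6.45 RPKM (5.55 to 7.14), at percentile 48.8 of the loci. ERN1, a kinase and RNase, was at 3.74 RPKM (3.10 to 4.17), at percentile 31.7. EIF2AK3, also called PERK, a kinase of the translation factor eIF2 alpha, was lowest at 2.13 RPKM (1.66 to 4.96), at percentile 16.6. The ranges of ERN1 and EIF2AK3 overlap, while that of ATF6 lies above ERN1 and below CANX.

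**Figure D1:**
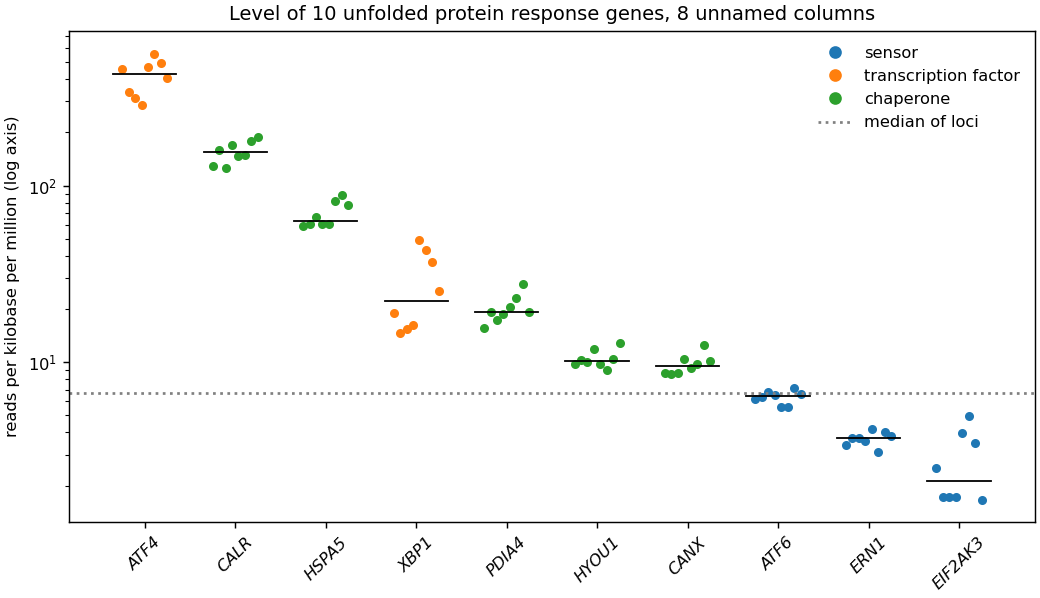
Level of each of the 10 genes per length of exon on a log axis, in RPKM; each point is 1 of the 8 unnamed columns (A to H from left to right within a gene), the bar is their median and the dotted line is the median of 14461 loci, 6.72. ATF4 lies highest at 431 and the sensor EIF2AK3 lowest at 2.13, with XBP1 spread most widely on the log axis, from 14.6 to 49.3.

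The next values are in CPM, a scale for comparing columns within a gene and not one gene with another. EIF2AK3 stood at 10.1 in A, 6.88 in B, 6.87 in C, 6.85 in D, 15.9 in E, 19.8 in F, 14.0 in G and 6.63 in H. It was high in E, F and G, intermediate in A and low in the other 4 columns. The highest column was 2.99 times the lowest, with a counting interval of 1.92 to 4.71, on 49 to 159 counts per column. This ratio was at percentile 78.6 of the 14461 loci, whose median ratio was 1.94. Among loci with a median of at least 50 counts it was at percentile 90.15.

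XBP1 read 28.1 in A, 21.5 in B, 22.8 in C, 24.0 in D, 72.6 in E, 63.9 in F, 54.3 in G and 37.5 CPM in H. Columns E, F and G were again high, with H between them and the other 4. Its highest column was 3.37 times its lowest (counting interval 2.75 to 4.14), the largest ratio among the 10 genes. This was at percentile 83.5 of the loci, or 92.45 of those with a median of at least 50 counts.

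ATF4 gave 873 in A, 652 in B, 601 in C, 545 in D, 898 in E, 1073 in F, 954 in G and 778 CPM in H. F was highest, A, E and G followed, B, C and D were low, and H lay between. The ratio of highest to lowest was 1.97 (1.87 to 2.07), at percentile 51.4 of these loci, or 69.5 of those with a median of at least 50 counts. With 4616 to 8619 counts per column, ATF4 had the narrowest counting error of the 10.

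The other sensors varied little. ATF6 was at 22.6 in A, 23.2 in B, 24.5 in C, 23.7 in D, 20.2 in E, 20.3 in F, 26.0 in G and 24.0 CPM in H. E and F were lowest, but the counting intervals of its lowest and highest columns overlap, and its ratio of 1.29 had an interval of 0.962 to 1.73.

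ERN1's locus was at 29.1 in A, 32.2 in B, 32.1 in C, 30.9 in D, 35.8 in E, 26.6 in F, 34.4 in G and 32.6 CPM in H. E was highest and F lowest, a ratio of 1.35 (1.04 to 1.73). Columns E and F, both high for EIF2AK3, thus lay at opposite ends for ERN1.

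Among the chaperones, HSPA5 showed 76.5 in A, 78.3 in B, 85.7 in C, 78.5 in D, 78.8 in E, 106 in F, 115 in G and 101 CPM in H. F, G and H were high and the other 5 columns lay close together. The ratio was 1.51 (1.31 to 1.74). Column E, the highest for XBP1, was not among the high columns of HSPA5.

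PDIA4 had 42.2 in A, 51.8 in B, 46.7 in C, 50.4 in D, 55.7 in E, 62.5 in F, 75.1 in G and 52.0 CPM in H. G was highest and F next, with a ratio of 1.78 (1.48 to 2.15).

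CANX was 36.1 in A, 35.8 in B, 36.0 in C, 43.3 in D, 38.8 in E, 40.7 in F, 52.2 in G and 42.4 CPM in H. G stood apart above the other 7 columns, and the ratio was 1.46 (1.21 to 1.77).

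CALR was at 89.6 in A, 110 in B, 87.1 in C, 118 in D, 101 in E, 103 in F, 123 in G and 130 CPM in H. H and G were highest, A and C lowest, and the ratio was 1.49 (1.31 to 1.70).

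HYOU1's locus was at 55.3 in A, 57.9 in B, 56.8 in C, 66.6 in D, 54.9 in E, 50.7 in F, 58.8 in G and 72.8 CPM in H. H and D were highest and F lowest, a ratio of 1.44 (1.20 to 1.73). Over the 10 genes, 3 (XBP1, EIF2AK3 and ATF4) had a ratio above the median of loci, 1.94. Against loci with a median of at least 50 counts, whose median ratio was 1.67, the count was 4, with PDIA4.

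**Figure D2:**
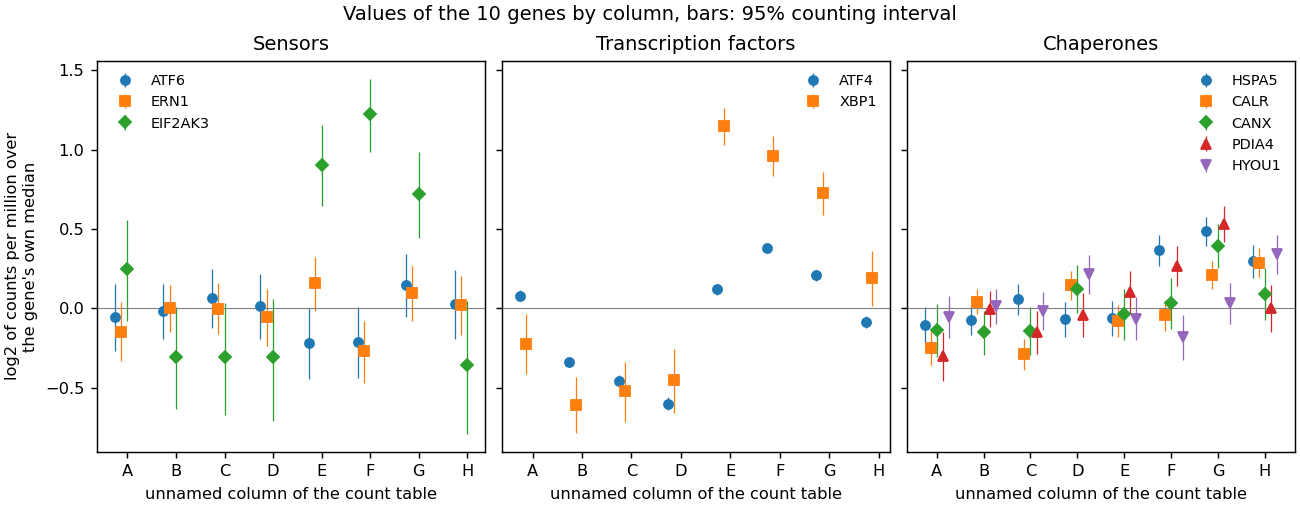
log2 of CPM over each gene's own median (vertical axis) in the unnamed columns A to H (horizontal axis), in 1 panel each for sensors, transcription factors and chaperones; bars are 95% counting intervals. EIF2AK3 and XBP1 are high in E, F and G, whereas ATF6 and ERN1 stay within 0.27 of their medians.

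How the genes varied together was described by Pearson's r of log2 CPM over the 8 columns, with Spearman's rho beside it. All values share the scaling to a column's total, and columns may share a lane. EIF2AK3 and XBP1 had r = 0.89 (rho = 0.64), and r = 0.74 without E and F, the 2 columns farthest from the median of EIF2AK3. EIF2AK3 and ATF4 had r = 0.87 (rho = 0.83), and r = 0.81 without the same columns. ATF4 and XBP1 had r = 0.84 (rho = 0.81), and r = 0.80 without C and D.

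ERN1, whose protein cuts the XBP1 mRNA, had r = 0.12 with XBP1 (rho = 0.26), and 0.58 without E and F. ATF6 had r = -0.50 with XBP1 (rho = -0.40), which turned to 0.68 without E and F. ATF6 and EIF2AK3 had r = -0.58, which likewise turned to 0.47. ATF6 and ERN1 had r = 0.32, which was 0.86 without E and F. ERN1 and EIF2AK3 had r = -0.17, which was 0.22 without them. The median r of the 3 pairs of sensors was -0.17, and its sign rests on columns E and F.

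The chaperones had higher r with one another than the sensors had with them. ATF6 and ERN1 varied little, with ratios of highest to lowest column of 1.29 and 1.35, and counting error weakens any r of such genes. A low r of these 2 sensors therefore does not show that they vary apart from the chaperones. The 10 pairs of 1 chaperone with another had a median r of 0.62. The 6 of these pairs without HYOU1 had 0.73, or 0.47 with column G left out. CANX and PDIA4 had r = 0.80 (rho = 0.55), which was 0.55 without B and G. HSPA5 and PDIA4 had r = 0.79 (rho = 0.79), which was 0.22 without F and G. CALR and CANX had r = 0.73 (rho = 0.69), which was 0.77 without C and H.

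The 15 pairs of a sensor with a chaperone had a median r of 0.28, and none reached 0.7. Without column G this median was -0.07. EIF2AK3 and PDIA4 had the highest, r = 0.60 (rho = 0.52). EIF2AK3 and the HYOU1 locus, which also holds PHLDB1, had the lowest, r = -0.70 (rho = -0.83). For the factors, XBP1 with PDIA4 had r = 0.68 and XBP1 with HSPA5 had r = 0.53. ATF4 with the HYOU1 locus had r = -0.50. Without E and F, ATF6 had r = 0.85 with HSPA5, 0.85 with PDIA4 and 0.77 with CANX. ERN1 then had 0.83 with HSPA5 and 0.86 with PDIA4. With the HYOU1 locus these 2 sensors fell, ATF6 from 0.55 to 0.07 and ERN1 from 0.34 to 0.23. EIF2AK3 without E and F had 0.60 with PDIA4 and -0.43 with the HYOU1 locus.

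Over all 45 pairs of the 10 genes the median r was 0.32, and 7 pairs (15.6%) reached 0.7. Without column G the median was 0.15. Over all pairs of the 9167 loci with a median of at least 50 counts, the median was 0.03 and 4.46% reached 0.7. This is a description of these 8 columns.

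**Figure D3:**
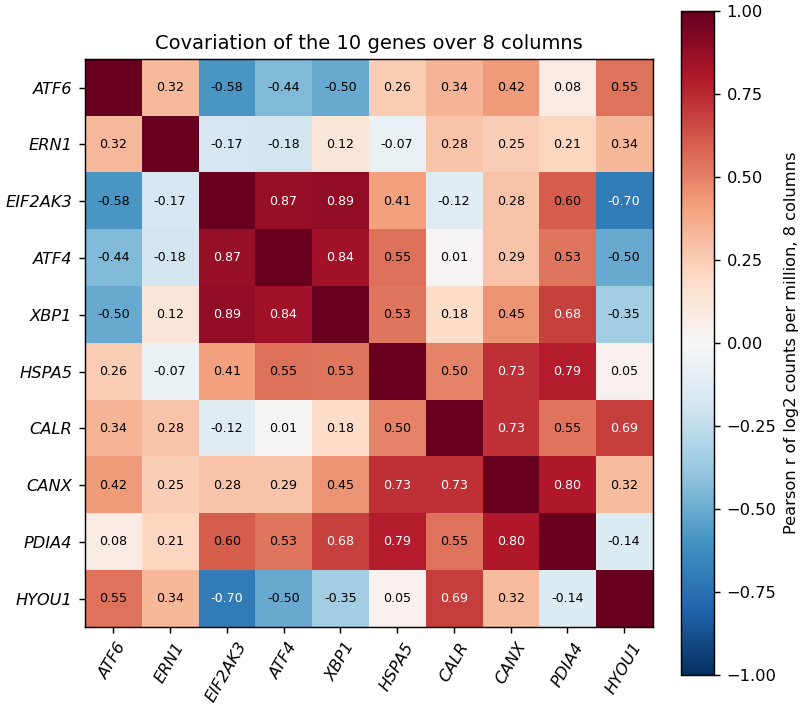
Pearson's r of log2 CPM for each pair of the 10 genes over the 8 unnamed columns; both axes list the genes by role and colour runs from -1 (blue) to 1 (red). EIF2AK3, ATF4 and XBP1 form a block of 0.84 to 0.89, and HSPA5, CALR, CANX and PDIA4 one of 0.50 to 0.80.

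Other cell types varied over the same columns. Of 13 fibroblast and matrix symbols 12 had a locus, and all 12 were highest in column G, where 18.8% of the 14461 loci were highest. Their summed level was 1442 in A, 2719 in B, 1847 in C, 1453 in D, 3895 in E, 3144 in F, 10290 in G and 4698 CPM in H. The r of this sum was 0.86 with PDIA4, 0.77 with HSPA5, 0.71 with CANX, 0.65 with XBP1 and 0.60 with CALR. It was 0.55 with ATF4, 0.48 with ERN1, 0.42 with EIF2AK3, 0.21 with ATF6 and 0.08 with HYOU1. In column G the sum lies far above the other columns, and that column can carry much of these r values. They were not computed without it. Other markers covaried with chaperones too. With HSPA5, CANX and PDIA4, the fast fibre sum had r = 0.69, 0.61 and 0.45, and the endothelial sum 0.61, 0.605 and 0.56. The slow fibre sum had -0.18, -0.55 and -0.39. The part of any of these markers in the chaperones' pattern was not tested.

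For plasma cells, in which XBP1 is needed for antibody secretion, 1 of 7 symbols had a locus: IGJ, at 1.09 to 12.2 CPM and highest in E. Its r with XBP1 was 0.77, on 9 to 99 counts per column. The slow fibre marker MYL2 had 0.86 with XBP1 and the endothelial marker KDR 0.77. The slow fibre and endothelial sums had 0.18 and 0.25 with XBP1. The part of any of these markers in XBP1's pattern was not tested. Of 10 macrophage and leukocyte symbols 8 had a locus, at a summed 112 to 246 CPM, with r = 0.84 to ERN1. Endothelial markers (6 of 8 with a locus) summed to 145 to 269, and adipocyte markers (4 of 5) to 68.7 to 183. Their sums had r = 0.62 and 0.73 with ERN1. The part of these markers in the pattern of the ERN1 locus was not tested.

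**Figure D4:**
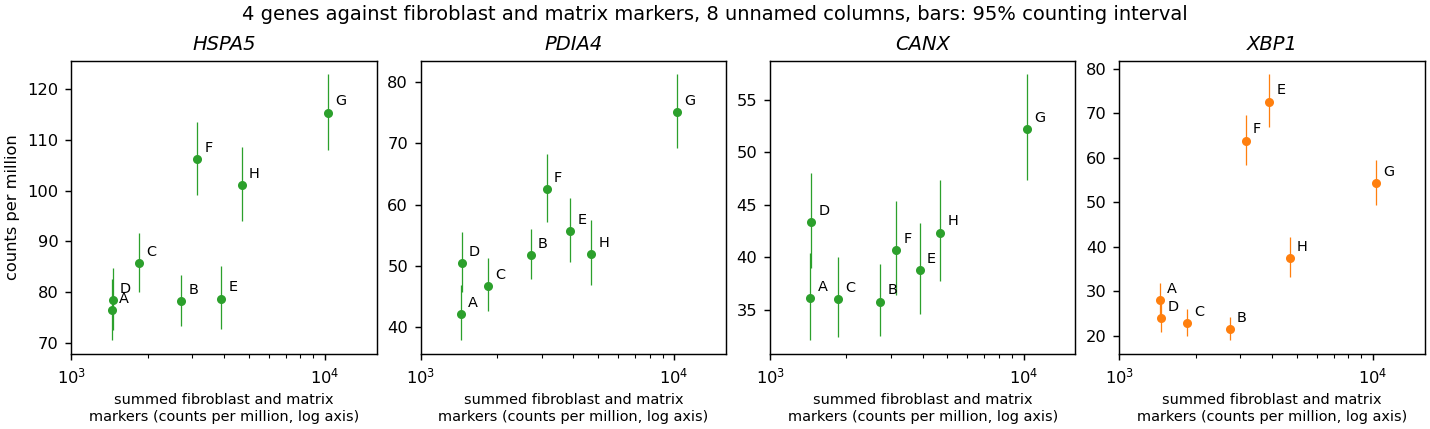
CPM of HSPA5, PDIA4, CANX and XBP1 (vertical axes, not starting at 0) against the summed CPM of 12 fibroblast and matrix markers (log axis); each point is 1 unnamed column, named by its letter, with its 95% counting interval. Column G lies at the far right, at 10290, and is highest for HSPA5, PDIA4 and CANX but not for XBP1.

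Other genes of the pathway were taken from lists. Loci whose exon bases are mostly or all covered by another locus hold few counts, as set out with the structure of the loci. A gene with many such bases may thus read too low per length. Levels per unshared exon take shared bases to hold no reads, so for such genes they are upper bounds. Levels per kilobase of unshared exon, added after the data were seen, are given where they alter a rank, and the genes this brings in were chosen after their values were seen. Of 40 symbols of chaperones and folding enzymes of the endoplasmic reticulum, 28 had a locus, with a median of 11.5 RPKM, and 16 of the 28 lay above the median of loci. The highest were CRELD1 at 77.1, the disulfide isomerase PDIA3 at 54.5 and the collagen chaperone SERPINH1 at 49.8 RPKM. Per unshared exon, the disulfide isomerase P4HB, which shares 81.3% of its exon bases, went from 16.8 to 89.5 RPKM, above all of these. The lowest by locus length were PPIB, listed at 0 in every column, DNAJB9 at 0.14 and SDF2L1, whose locus also holds YDJC, at 1.60 RPKM. All exon bases of PPIB are shared, 99.8% of DNAJB9's and 95.8% of SDF2L1's, which leaves fewer than 100 unshared bases in each, so their levels cannot be ranked. Of the 26 with a median of at least 10 counts, 18 (69.2%) were highest in column G, against 18.8% of the 14461 loci. SERPINH1 ran from 83.3 to 422 CPM, highest in G like the collagens it folds.

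Of 31 symbols for degradation of misfolded proteins, 24 had a locus, with a median of 13.9 RPKM, and 18 lay above the median of loci. NPLOC4, a partner of the extracting ATPase, was highest at 96.1 RPKM, then UBE2J1 (locus shared with RRAGD) at 62.6. Per unshared exon SEC62 (91.9% shared) was at 95.8 RPKM, next to NPLOC4, but this rests on only 128 unshared bases. UFD1L (73.5) and UBXN4 (70.7) also passed UBE2J1 on this scale. RNF139 at 0.90, DERL2 at 3.80 and the mannosidase MAN1B1 at 4.02 RPKM were lowest by locus length, but RNF139 shares 85.6% of its exon bases and was at 6.24 per unshared exon, above the other two. Here 8 of 24 loci (33.3%) were highest in G.

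Of 30 symbols for translation control and the integrated stress response, 14 had a locus, with a median of 12.5 RPKM and 8 above the median of loci. EIF2S1, which encodes the eIF2 alpha that EIF2AK3 phosphorylates, was highest by locus length at 52.0 RPKM. EIF2S2 (locus shared with RALY) followed at 45.6 and VLDLR at 42.4. Per unshared exon, EIF2S2 (73.8% shared) was at 174 and ATF3 (96.0% shared, 134 unshared bases) at 138 RPKM, both above EIF2S1, which shares none. By either length the asparagine synthetase ASNS, a known ATF4 target that shares no exon bases, was low in this list at 4.74 RPKM. Among the 14461 loci this was percentile 39.3. ASNS ran from 10.5 to 33.6 CPM, with r = 0.56 to ATF4. Of 13 with a median of at least 10 counts, 5 (38.5%) were highest in C, 5 (38.5%) in F and none in G. Of the 14461 loci, 19.5% were highest in C, 10.6% in F and 18.8% in G. Of the 4 kinases of eIF2 alpha, EIF2AK1, which senses haem, had 6.50 RPKM, close to the median of loci. EIF2AK4, which senses amino acid shortage, had 2.41, EIF2AK3 2.13, and EIF2AK2, which senses double-stranded RNA, 0.21. EIF2AK2 shares 90.3% of its exon bases and was at 2.16 RPKM per unshared exon, where EIF2AK3 was at 2.47. With 0 to 3 counts per column and 114 unshared bases, EIF2AK2 cannot be ranked against EIF2AK3.

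Of 22 symbols for activation and partners of the sensors, 17 had a locus, with a median of 8.95 RPKM and 11 above the median of loci. C22ORF28, which in mammals encodes the ligase that joins XBP1 mRNA after ERN1 cuts it, was highest at 49.4 RPKM, far above ERN1 itself. CREB3 at 45.3 and ARCN1 at 35.6 RPKM followed, and NFE2L2 (66.7% shared) passed ARCN1 per unshared exon, at 37.4. The lowest were MBTPS2, a protease that frees ATF6, at 2.39, MAP3K5, a kinase downstream of ERN1, at 2.97 and BFAR at 4.20 RPKM.

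Among the 5786 named loci with a median of at least 50 counts, those whose values were most like each gene's were ranked by r over the 8 columns. The highest of so many values over 8 columns can be high without a shared pattern, and this was not tested. XBP1 was most like TARS (r = 0.98) and UXS1 (0.97), then YARS (0.95). TARS and YARS encode tRNA synthetases, for threonine and tyrosine. TARS ran from 23.3 to 59.4 CPM. ATF4 was most like XPA (r = 0.99), WDR36 (0.96) and LBR (0.96). EIF2AK3 was most like CRK, SRPK1 and TMEM43 (each 0.95). None of these 9 is another of the 10 genes. Of 5785 loci compared, 39 had a higher r with EIF2AK3 than XBP1 had, and 44 a higher one than ATF4 had. With ATF4, 74 loci had a higher r than EIF2AK3 had, and 122 a higher one than XBP1 had.

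For the chaperones, HSPA5 was most like YWHAZ (r = 0.97), GPR107 (0.94) and TRA2A (0.93), and PDIA4 most like CDKN2AIP (0.98), PANK3 (0.97) and RASK_MELGA (0.95). CANX was most like KCNE4 (0.95), PROS1 (0.93) and TNKS1BP1 (0.92), all highest in G. CALR was most like the ribosomal protein gene RPL7A (0.94), then LRRC39 and NRP2 (each 0.93). HYOU1 was most like OGFOD1 (0.95), MVD (0.94) and PIGN (0.93). ATF6 was most like FAM20B (0.92), DMTF1 (0.91) and PKD2 (0.91), and ERN1 most like TSTA3 (0.97), IQSEC1 (0.96) and C1GALT1C1 (0.96). The variation of ATF6 was not detectable beyond counting error, so its nearest loci cannot be told from matches to that error.

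The structure of the loci bears on what their counts hold. Coordinates are those of the deposited annotation, whose genome build was not given in the sources used here. ATF4, HSPA5, CALR and CANX each matched a reference transcript exactly. ATF4 lay on chromosome 1 from 50788499 to 50791749, plus strand, in 3 exons. HSPA5 lay on chromosome 19 from 9626751 to 9629026, minus strand, in 6 exons. CALR lay on an unplaced scaffold from 5803 to 6826, plus strand, in 5 exons of only 689 bases together. CANX lay on chromosome 15 from 13291666 to 13302150, minus strand, in 14 exons.

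ATF6, PDIA4 and XBP1 were assembled only as variants that share junctions with a reference transcript. ATF6 (chromosome 10, 7206101 to 7276854, minus strand) had 2 variants of 14 exons over 70754 bases. PDIA4 (chromosome 3, 751972 to 760960, plus strand) had 2 variants of 9 and 10 exons. XBP1 (chromosome 17, 8029589 to 8032289, minus strand) had 3 variants of 3 or 4 exons. They differ in a short intron, of 68 bases in one and 89 in another and absent from the third, beside introns of 495 and 731 bases that all 3 share. The stretch that ERN1 cuts from XBP1 mRNA, known from mammals, is shorter than any intron of the annotation, where the shortest of 120662 is 55 bases and none is 50 or less. The table therefore gives XBP1 mRNA as a whole, cut and uncut together.

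EIF2AK3 (chromosome 4, 69992260 to 70026606, minus strand) was assembled as 3 transcripts of 4 to 16 exons, all contained in a reference transcript. ERN1 (chromosome 20, 8320986 to 8323801, plus strand) had 2 contained transcripts of 3 and 4 exons. Transcripts that carry its name make up 27.7% of the exon bases of its locus, and the rest, to 8331286, carry no name. HYOU1 (chromosome 26, 5989048 to 5999677, minus strand) was in pieces: 11 of its 12 transcripts had a single exon. Its locus spans 39003 bases and also holds 10 transcripts of PHLDB1, the neighbouring gene in RefSeq, and HYOU1's name covers 47.8% of the exon bases. Counts of the HYOU1 locus are therefore not counts of that gene alone. In the ERN1 locus no other gene is named, and whether the unnamed exons belong to ERN1 was not tested.

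**Figure D5:**
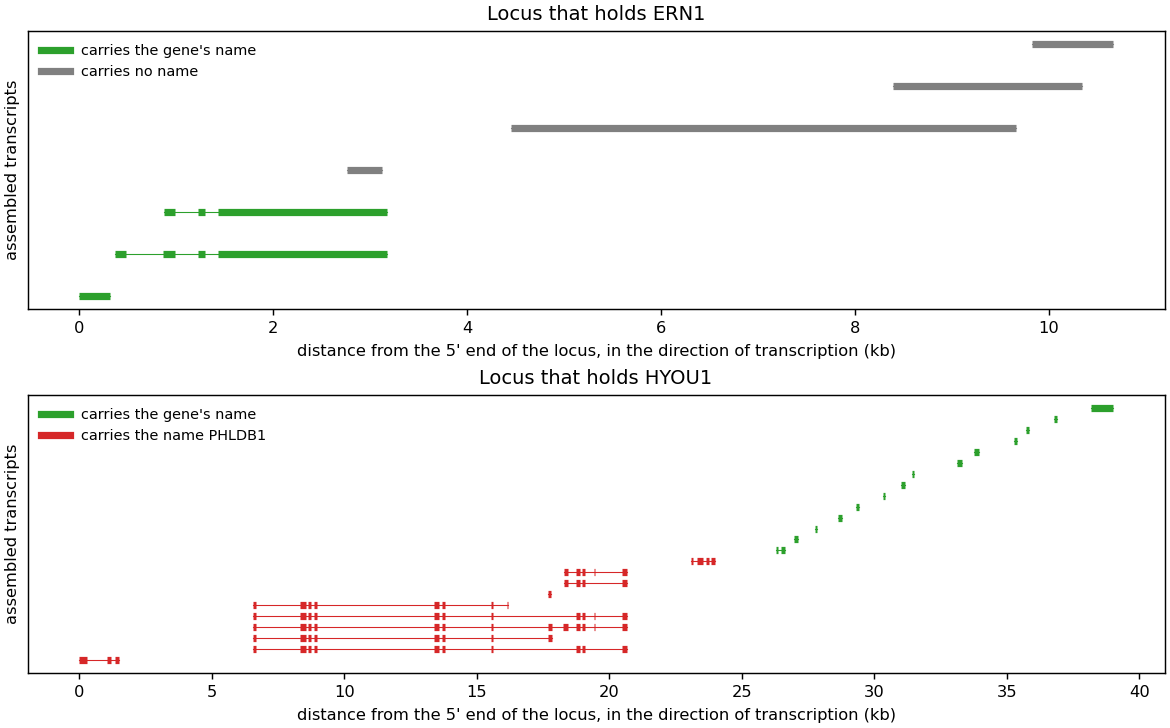
Assembled transcripts (1 per line; boxes are exons, thin lines introns) of the loci that hold ERN1 and HYOU1, by distance in kb from the 5′ end in the direction of transcription; colour gives the gene name carried. ERN1's name ends well before the middle of a locus of 8591 exon bases, and transcripts that carry HYOU1's name, nearly all of a single exon, lie downstream of PHLDB1.

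Loci whose exon bases are mostly or all shared with another locus held few counts in the table. Of 1695 loci whose exon bases were all covered by another locus too, 1683 (99.3%) had no count in any column, against 10 of 15093 loci (0.07%) with no shared base. PPIB, at 0, is one of the former. Loci with more than 50% but not all of their bases shared had a median of 7.86 counts per kilobase. This was 37.0 for loci with none shared, but 55.1 for those with up to 50% shared. Counts are per locus, so reads on shared bases cannot be seen directly. CANX shared 86.0% of its exon bases with 8 loci on the opposite strand, which together held 96 counts over all columns against 2838 for CANX. HSPA5 shared 29.9%, ATF6 21.6%, XBP1 19.7% and EIF2AK3 14.0%, while ATF4, CALR, PDIA4 and ERN1 shared none.

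Per kilobase of unshared exon, a scale added after the data were seen, CANX went from 9.54 to 68.0 RPKM. By locus length it was at percentile 60.3 of the 14461 loci. Per unshared exon it was at percentile 92.6 of the 14014 of these with at least 100 unshared bases. Its median then stood above those of XBP1 (27.7) and PDIA4 (19.2) and below that of HSPA5 (90.5). CANX's range of 61.3 to 89.4 lay above that of PDIA4 and met that of XBP1, whose highest column is also at 61.3. It overlapped the range of HSPA5, 84.1 to 127. The sensors ATF6 (8.23), ERN1 (3.74) and EIF2AK3 (2.47) were still the 3 lowest. As before, the place of ERN1 rests on the length used. The HYOU1 locus, next above them at 10.4, also holds PHLDB1. The scale takes shared bases to hold no reads, so for genes with shared bases its levels are upper bounds. The divisor is the same in every column, so each gene's ratios between columns are as given above.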

How the data were processed

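The table deposited by the authors holds counts: whole numbers of reads per locus in 8 unnamed columns, not normalized. The submitters' processing notes name HTSeq, TopHat, DESeq and Cufflinks and give neither versions nor roles. Per the file itself, the deposited annotation comes from Cufflinks. The sources used here give no build, strand setting or read length. Libraries were made from 10 µg of RNA (integrity number 8 or more) and run 2 to a lane, per the labels.

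Since no column could be tied to a sample, the counts were treated as values of no sample and no test between groups was run. Dixon's criterion was applied to each gene's highest and lowest column. Counts were scaled to the column total (CPM), and per length by the union of the locus's exon bases (RPKM). Correlations used log2 CPM with a pseudocount of 0.5 counts. Levels were ranked among loci with a median of at least 10 counts, and likeness among named loci with at least 50. Intervals are exact 95% Poisson limits of the counts. A ratio's interval sets the limits of its highest column against the opposite limits of its lowest, which is wider than 95%. In each list the 3 highest and 3 lowest genes per length were named, and the 3 most alike loci for each gene. One gene that this rule names is not reported here.

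The 10 genes and all lists were chosen with earlier results of these data known. Symbols were matched by gene name, 83 of 123 pathway symbols had a locus, and those without one were not analysed here. All 10 symbols are in RefSeq's turkey gene table. Alternatives were other scalings, pseudocounts, filters, lengths, rank correlation and each column left out. Python 3.11.15, pandas 2.3.3, NumPy 2.4.6, SciPy 1.17.1 and Matplotlib 3.10.9 were used, and the scripts were tested on simulated data.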

Additional observations from a re-analysis of the deposited data

Results flagged for a closer look

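CANX stood at 52.2 CPM in column G, apart from the other 7 columns, which lay between 35.8 and 43.3. The gap to the nearest column was 0.541 of the whole range, above Dixon's 95% critical value of 0.526 for 8 values. Chance sets apart about 1 in 20 such groups, and 10 genes were examined at both ends. The 8 columns hold both kinds of meat and are not one group. All 12 fibroblast and matrix markers were highest in the same column, and their part in this value was not tested.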

How the results depend on the processing

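The median r of sensors with chaperones (0.28) ran from -0.0707 to 0.377 as each column was left out, turning negative without column G. The median r of the chaperones without HYOU1, a set chosen after the data were seen, ran from 0.47 to 0.76 (0.73 in all), lowest without G. That of EIF2AK3, ATF4 and XBP1, also chosen after, was 0.87, with 0.81 by Spearman's rho and 0.82 to 0.94 with each column left out. The cause of these shifts was not tested. Of the 10 genes, 4 had a transcript that matches a reference exactly. The median r of the 10 genes (0.32) ran from 0.15, without G, to 0.40. With the counts of the whole locus over the longest transcript, ERN1 would be at 15.6 RPKM, which is an upper bound. HYOU1 would be at 244, a value with no meaning since that transcript is a fragment of 235 bases. No paired analysis was possible because the columns carry no names. Depth limits EIF2AK3 most, at 49 to 159 counts per column, and ATF6's variation was not detectable beyond counting error.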
